A study of Homo sapiens with 6 samples.

Results

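The genes described are the collagen chain genes, found as the probe sets annotated to exactly 1 symbol of the form COL, number, A, number. The rule gave 45 probe sets of 33252, which stand for 43 genes of the 18418 that had a named probe set. COL11A2 had 3 probe sets, of which 2 held identical values, so they are not separate measurements, and the brightest was used. A probe set annotated to both PNLIP and COL1A2 was left out by the rule. Genes were separated by their mean log2 value over the 6 arrays against the median of all probe sets, 7.03. Of the 43 genes, 18 were above it and are called expressed here, and 25 were at or below it and are called near background. Of all 18418 genes, 10862 were above it, a larger share than of the collagen genes.

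The arrays came from A2780, a human ovarian cancer cell line grown in medium with 10% fetal bovine serum. Cells were infected with lentivirus carrying 1 of 6 constructs: a control for BMI1 (BMI1 Ctrl), BMI1 shRNA1 and BMI1 shRNA2, a control for FAL-1 (FAL-1 Ctrl), and FAL-1 shRNA1 and FAL-1 shRNA2. An shRNA, here called a hairpin, is a short RNA that lowers a chosen transcript. BMI1 encodes a Polycomb protein that helps silence genes in chromatin. FAL-1 is a long non-coding RNA. Virus was removed at 24 hours and RNA collected at 96 hours. The labels do not say what the control hairpins target, and 1 array per construct was analysed, so every control is a single array.

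Collagens are trimers of chains that wind into a triple helix through repeats in which glycine recurs at a fixed spacing. Fibrillar chains (types I, II, III, V, XI, XXIV and XXVII) assemble into the fibrils of interstitial matrix, type IV chains form the network of basement membranes, type VI chains form beaded filaments around cells, and FACIT chains attach to the surface of fibrils. In ovarian tumours much of the collagen is known to come from stromal fibroblasts.

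Arrays of 1 target correlated at 0.985 to 0.995 across probe sets, arrays of different targets at 0.973 to 0.987, and array medians lay between 6.94 and 7.09. The BMI1 probe set was at 26.8% of its control with BMI1 hairpin 1 and at 64.0% with hairpin 2. No probe set used here is annotated to FAL-1 (FALEC), so that knockdown was not checked. Of 10 ovarian carcinoma markers, KRT8 and KRT18 were above the median of probe sets, and PAX8, WT1, MUC16, MSLN, EPCAM, KRT7, CDH1 and WFDC2 were at or below it. Of 7 fibroblast markers, 6 were above it (PDGFRA, PDGFRB, THY1, POSTN, LUM and DCN) and FAP was not. Only CLDN5 of 5 endothelial and CD68 of 5 leukocyte markers were above it.

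Fibrillar collagen was the class with the most expressed members. Of 11 fibrillar genes, 8 were expressed: COL1A1, COL1A2, COL2A1, COL3A1, COL5A2, COL11A1, COL11A2 and COL27A1. The near-background fibrillar genes were COL5A1, COL5A3 and COL24A1. Type VI was represented by COL6A1, COL6A2 and COL6A3, 3 of the 5 beaded filament genes. Of 6 type IV genes COL4A5 alone was above the median. The other expressed genes were COL8A2, COL9A2, COL9A3, COL18A1, COL23A1 and COL26A1. The anchoring fibril gene COL7A1 was near background, and of 10 FACIT genes 8 were. The split is a property of the array values and not a test of expression. Genes just above it were COL11A2 (7.07), COL9A2 (7.11) and COL2A1 (7.12), and genes just below it were COL5A3 (7.01), COL16A1 (6.97) and COL7A1 (6.93). COL11A2 counts as expressed by its brightest probe set alone. Its other 2 probe sets, with identical values, read 6.52, below the split. Probe sets differ in how brightly they report the same amount of RNA, so levels of different genes are not ranked.

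**Figure D1:**
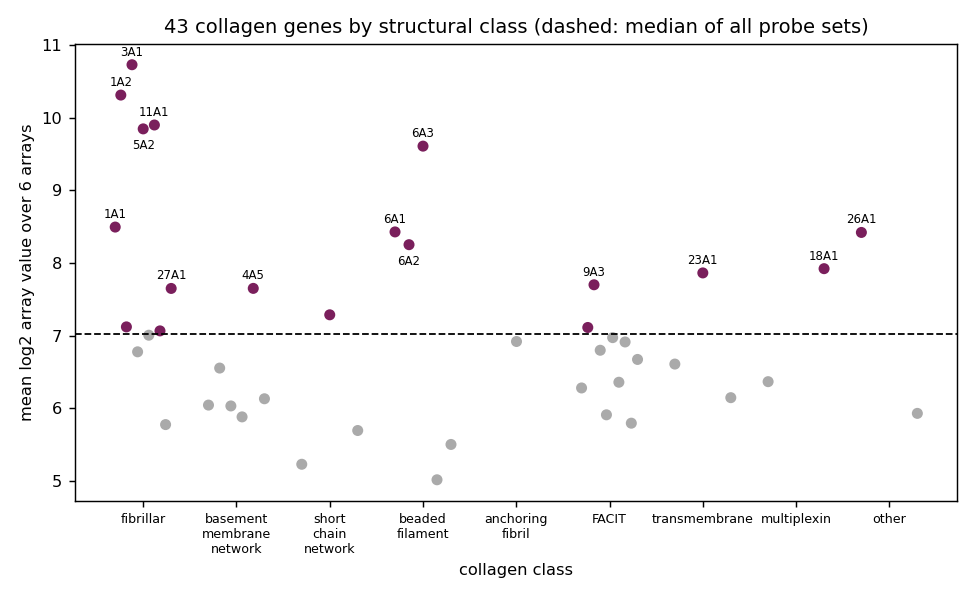
Mean log2 array value over the 6 arrays (vertical axis) of the 43 collagen genes, 1 point a gene, by structural class (horizontal axis), with the median of all probe sets as a dashed line. Purple points are the 18 genes above the line, labelled by chain where they lie well above it, and grey points the 25 at or below it; 8 of 11 fibrillar genes and 1 of 6 type IV genes are above.

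No collagen gene passed limma's test in either knockdown. limma fits a linear model to every gene and borrows information on the spread across genes. It called 0 of 18418 genes for BMI1 and 0 for FAL-1 at an adjusted p under 0.05, which is 0% of genes tested in each. The BMI1 gene was among those tested, so it was not called either, though it read lower with both BMI1 hairpins. A gene not called is thus not shown to be unchanged. At an unadjusted p under 0.05 limma gave 477 genes for BMI1 (2.59%) and 563 for FAL-1 (3.06%). None of the 43 collagen genes was among the first, and COL1A2 and COL5A2 were among the second. The spread rests on 2 residual degrees of freedom, and separate cultures are not described, so p-values measure only the spread between these samples, which may be technical. Different hairpins stand in for replicates, so the spread includes unequal knockdown of a target, as in the BMI1 values above. The hairpins of a target are compared with the same single control array, so their changes are not independent. An SD between hairpins, as given below, holds none of the spread of the control. The values below are therefore descriptions unless a test is named.

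COL5A2, the alpha 2 chain of type V collagen, which is known to take part in starting collagen fibrils, differed from its control by more than the other collagen genes with FAL-1 knockdown on the mean of the hairpins, though with hairpin 2 alone COL1A2 differed by more. It read 9.32 in the FAL-1 control, 10.55 with FAL-1 hairpin 1 and 10.41 with hairpin 2. In the BMI1 set it read 9.26 in the control, 10.05 with hairpin 1 and 9.48 with hairpin 2. All 4 hairpin arrays were above both controls, and the controls were close to each other. The log2 change with FAL-1 knockdown was 1.16 ± 0.10 (SD, n = 2 hairpins), or 2.24-fold, and limma gave it a standard error of 0.27, an unadjusted p of 0.0105 and an adjusted p of 0.9991. With BMI1 knockdown the change was 0.51 ± 0.40, with an adjusted p of 0.9998 (limma). The FAL-1 change exceeded the BMI1 change by 0.66 with a standard error of 0.38, and limma did not call this difference (adjusted p = 0.9999). COL5A2 was known from earlier results of these data to be high with FAL-1 knockdown, so its value adds no independent support.

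COL5A2 was also the one collagen gene at 1.5-fold or more the same way with both FAL-1 hairpins. This is 1 of 18 expressed collagen genes, where 0.875% of all expressed genes were that far higher with both FAL-1 hairpins, and 0.902% that far lower. No expressed collagen gene met this rule with BMI1 knockdown, where 0.847% of expressed genes were higher and 1.38% lower. A single gene says little against such shares.

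COL1A2, the alpha 2 chain of type I collagen, was higher with FAL-1 hairpin 2 most of all. It read 9.84 in the FAL-1 control, 10.36 with hairpin 1 and 11.03 with hairpin 2, beside 10.09, 10.28 and 10.27 in the BMI1 control and with BMI1 hairpins 1 and 2. Again all 4 hairpin arrays lay above both controls. The change was 0.86 ± 0.48 (SD, n = 2 hairpins) with FAL-1 and 0.18 ± 0.01 with BMI1 knockdown. The controls differed by -0.25 (FAL-1 minus BMI1), and against the other target's control the changes were 0.60 for FAL-1 and 0.44 for BMI1 knockdown. limma gave the FAL-1 change an unadjusted p of 0.0432 and an adjusted p of 0.9991. Without FAL-1 hairpin 1 it was 1.19, and without hairpin 2 it was 0.52.

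Its partner COL1A1, the alpha 1 chain of type I collagen, showed a smaller difference. COL1A1 read 8.42, 8.60 and 8.97 in the FAL-1 control and with hairpins 1 and 2, and 8.29, 8.14 and 8.55 in the same order of the BMI1 set. BMI1 hairpin 1 was below its control and the other 3 hairpins were above theirs. The change was 0.37 ± 0.27 with FAL-1 and 0.06 ± 0.29 with BMI1 knockdown (SD, n = 2 hairpins), so the BMI1 value is within the spread between hairpins. Type I collagen is usually made of both chains, and on this array both were higher with each FAL-1 hairpin.

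COL3A1, whose chain forms the homotrimer of type III collagen, had a range of 0.50 over the 6 arrays, where the median range of expressed collagen genes was 0.52. It read 10.58 in the BMI1 control, 10.80 and 10.75 with the BMI1 hairpins, 10.51 in the FAL-1 control, and 11.01 and 10.71 with the FAL-1 hairpins. The 4 hairpin arrays were above both controls. Its changes were 0.19 ± 0.03 with BMI1 and 0.35 ± 0.215 with FAL-1 knockdown (SD, n = 2 hairpins). COL3A1 and COL5A2 are next to each other among protein-coding genes in RefSeq on GRCh38.p14, and both were above the control with all 4 hairpins. With FAL-1 hairpin 2 COL5A2 was higher by 1.09 and COL3A1 by 0.20.

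The other fibrillar genes did not share this pattern. COL11A1, a chain of type XI collagen, read 10.08, 9.98 and 10.03 in the BMI1 control and with hairpins 1 and 2, and 9.77, 10.03 and 9.51 in the FAL-1 set. The FAL-1 hairpins lay on opposite sides of their control, by 0.26 and -0.27. COL27A1 was below its control with hairpin 1 of each target, by -0.40 and -0.25, and above it with hairpin 2, by 0.06 and 0.20. COL2A1 and COL11A2, close to the array median, differed from their control by between -0.05 and 0.30 with any hairpin. COL5A1, the usual partner chain of COL5A2, was near background at 6.78 on average. Its changes were -0.01 and 0.19 with the BMI1 hairpins and -0.09 and 0.16 with the FAL-1 hairpins, so the COL5A2 values had no counterpart there.

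**Figure D2:**
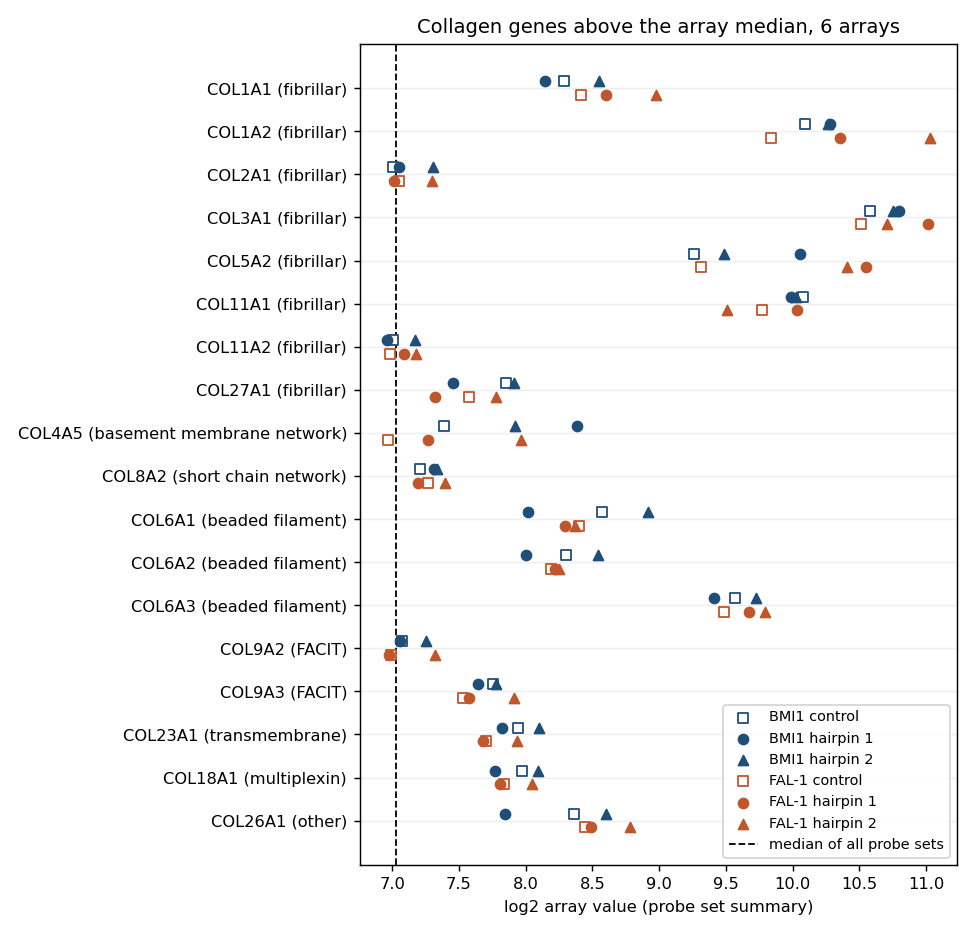
Log2 array value (horizontal axis) of the 18 expressed collagen genes (vertical axis, with class) on each of the 6 arrays; open squares are controls, circles hairpin 1 and triangles hairpin 2, blue for the BMI1 set and orange for the FAL-1 set, and the dashed line is the median of all probe sets. For COL1A2, COL3A1 and COL5A2 all 4 hairpin arrays sit to the right of both controls, while for COL6A1 and COL26A1 the BMI1 hairpins sit on either side of their control.

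Among the 18 expressed genes, COL3A1, COL1A2, COL5A2 and COL4A5 were above their own control with all 4 hairpins. That is 22.2%, where 14.6% of all expressed genes were. COL3A1, COL1A2 and COL5A2 were also above both controls with all 4, which is 16.7%, where 7.42% of all expressed genes were. No collagen gene was below its own control with all 4 hairpins, where 19% of expressed genes were. With FAL-1 knockdown 10 of 18 expressed collagen genes were above the control with both hairpins (55.6%, beside 32.4% of all expressed genes) and COL6A1 alone was below with both (beside 34%). With BMI1 knockdown 6 of 18 were above with both (33.3%, beside 27.3%) and COL11A1 alone was below with both (beside 36.3%), though against the FAL-1 control it was higher by 0.23. The genes were chosen with these data known, and these shares carry no test.

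COL4A5, the alpha 5 chain of type IV collagen, was the expressed gene that varied over the widest range. It read 7.39 in the BMI1 control, 8.39 with BMI1 hairpin 1 and 7.92 with hairpin 2. In the FAL-1 set it read 6.97 in the control, 7.27 with hairpin 1 and 7.97 with hairpin 2. Each hairpin was above its own control, but FAL-1 hairpin 1 was below the BMI1 control. The changes were 0.77 ± 0.33 with BMI1 and 0.65 ± 0.49 with FAL-1 knockdown (SD, n = 2 hairpins), with adjusted p values of 0.9998 and 0.9991 (limma). The control arrays differed by -0.42 (FAL-1 minus BMI1), so the choice of control matters: against the other target's control BMI1 gave 1.19 and FAL-1 gave 0.23. The larger BMI1 change was with hairpin 1, the hairpin with the lower BMI1 value, but a link between these was not tested. Other genes given here went both ways: COL5A2 and PDGFRB changed more with BMI1 hairpin 1, and NID1 and PLOD2 more with hairpin 2.

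Type IV genes lie in head-to-head pairs, and COL4A5 and COL4A6 are such neighbours. The bases before the 2 start sites are shown because both genes of the pair read above the control with every hairpin. They come from RefSeq on GRCh38.p14, 250 bases before each start. The COL4A5 sequence is chrX:108439588-108439837 on the plus strand and the COL4A6 sequence is chrX:108439459-108439708 on the minus strand. The starts have 379 bases between them, and capitals mark the 121 bases that both sequences share, on opposite strands. Promoter sequences were matched for 31 of the 43 collagen genes, and COL1A1, COL1A2, COL3A1 and COL5A2 were not matched.
COL4A5: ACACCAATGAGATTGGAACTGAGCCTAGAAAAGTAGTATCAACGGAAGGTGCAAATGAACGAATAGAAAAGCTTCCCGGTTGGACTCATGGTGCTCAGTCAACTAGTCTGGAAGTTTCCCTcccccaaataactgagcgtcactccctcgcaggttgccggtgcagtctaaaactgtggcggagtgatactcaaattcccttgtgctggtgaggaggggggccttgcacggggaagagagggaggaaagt
COL4A6: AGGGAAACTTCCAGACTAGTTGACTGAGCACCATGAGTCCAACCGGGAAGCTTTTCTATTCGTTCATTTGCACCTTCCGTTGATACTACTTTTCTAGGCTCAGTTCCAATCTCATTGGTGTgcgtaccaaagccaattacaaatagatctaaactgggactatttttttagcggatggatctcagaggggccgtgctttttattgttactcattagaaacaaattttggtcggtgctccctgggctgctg

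The shared bases hold 2 matches to CCAAT or its reverse complement ATTGG, and the COL4A6 sequence holds 1 more outside them. Neither sequence has the letters TATAAA or GGGCGG on either strand. Of all 35116 RefSeq promoter sequences of the same length, 32% hold CCAAT on either strand, 10.7% TATAAA and 42.6% GGGCGG. GC content was 51.2% for COL4A5 and 44.0% for COL4A6, beside a median of 58.0%. The pair COL4A1 and COL4A2, the chains of the most widespread type IV collagen, has 126 bases between its starts. They are shown as a second head-to-head pair, both of whose genes were near background, as COL4A6 was, at chr13:110307158-110307283 on the plus strand, with a CCAAT and a GGGCGG match in capitals and a GC content of 80.2%. A match is a description of the letters only.
COL4A1 to COL4A2: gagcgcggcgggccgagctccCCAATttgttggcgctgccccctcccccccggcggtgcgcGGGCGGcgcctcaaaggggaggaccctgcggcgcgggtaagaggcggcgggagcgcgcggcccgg

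COL4A6 was near background on every array but followed COL4A5 in sign. It read 5.99, 6.29 and 6.14 in the BMI1 control and with hairpins 1 and 2, and 5.92, 5.99 and 6.45 in the FAL-1 set. Its changes were 0.30 and 0.15 with the BMI1 hairpins, where COL4A5 had 0.999 and 0.53. With the FAL-1 hairpins they were 0.07 and 0.53, where COL4A5 had 0.30 and 1.002. In both targets the hairpin with the larger COL4A5 change also had the larger COL4A6 change. COL4A1 differed by -0.03 and 0.12 with the BMI1 hairpins and by 0.04 and 0.23 with those of FAL-1. COL4A2 differed by 0.04 and 0.24 with BMI1 and by 0.07 and 0.24 with FAL-1. COL4A3 and COL4A4 differed by at most 0.21. Near-background genes in general were above the control more often with hairpin 2, as given below, and the part of this in the COL4A6 values was not tested.

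The type VI genes separated the BMI1 hairpins. COL6A1, a chain of the beaded filaments, read 8.57 in the BMI1 control, 8.02 with hairpin 1 and 8.92 with hairpin 2. In the FAL-1 set it read 8.40, 8.29 and 8.37. The BMI1 hairpins thus lay on either side of their control, by -0.55 and 0.35, and no common change can be given. COL6A2, its neighbour in the genome and partner in the trimer, read 8.30, 8.003 and 8.54 in the BMI1 set and 8.19, 8.22 and 8.25 in the FAL-1 set. Its differences of -0.30 and 0.24 with the BMI1 hairpins had the same signs as those of COL6A1. COL6A3, the long chain of the common type VI trimer, differed by -0.16 and 0.15 with the BMI1 hairpins and by 0.19 and 0.31 with the FAL-1 hairpins.

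The same opposition of the BMI1 hairpins appeared in other expressed genes. COL26A1 read 8.36 in the BMI1 control, 7.84 with hairpin 1 and 8.60 with hairpin 2, and 8.45, 8.49 and 8.78 in the FAL-1 set. COL18A1, a multiplexin whose end fragment is endostatin, differed by -0.20 and 0.12 with the BMI1 hairpins, COL23A1, a transmembrane collagen, by -0.12 and 0.15, and COL9A3 by -0.12 and 0.02. Over the 18 expressed genes the median change was -0.10 with BMI1 hairpin 1 and 0.17 with hairpin 2, and 6 and 17 of the 18 were above the control. All expressed genes had medians of -0.03 with each of these hairpins, and 4937 and 4954 of 10862 were above the control. With FAL-1 the expressed collagen medians were 0.05 with hairpin 1 and 0.24 with hairpin 2, with 11 and 16 of 18 above the control, where all expressed genes had medians of -0.0009 and -0.02 and 5417 and 5266 of 10862 above it. Of the 18 genes, only 9 were more than 1 above the median of probe sets. Near-background genes in general were above the control more often with hairpin 2, as given below. The part of this in the expressed collagen genes close to the split was not tested. COL8A2, a chain of short-chain network collagen, differed by 0.10 and 0.13 with BMI1 and by -0.08 and 0.12 with FAL-1, and COL9A2 by -0.01 and 0.18 and by -0.01 and 0.33 in the same order.

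**Figure D3:**
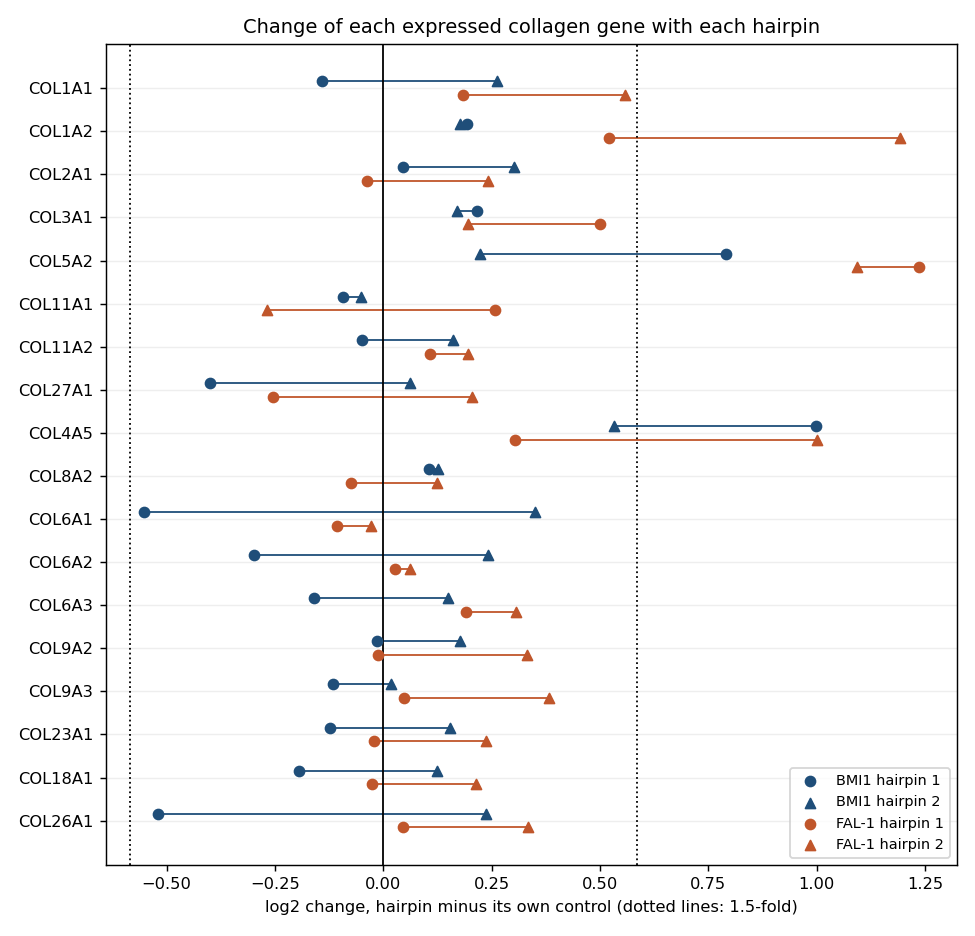
Log2 change of each of the 18 expressed collagen genes (vertical axis), hairpin minus its own control (horizontal axis); circles are hairpin 1 and triangles hairpin 2, blue for BMI1 and orange for FAL-1, a line joins the hairpins of a target, and dotted lines mark 1.5-fold. COL5A2 is the one gene with both hairpins of a target, FAL-1, beyond the dotted line, and the BMI1 line crosses 0 for COL6A1, COL6A2, COL6A3, COL18A1 and COL26A1, among others.

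Averaged over hairpins, the median change of the expressed collagen genes was 0.04 with BMI1 and 0.16 with FAL-1 knockdown, beside -0.03 and -0.02 for all expressed genes. The 8 fibrillar genes had medians of 0.12 and 0.25, and the other 10 had -0.02 and 0.13. The difference between the knockdowns was tested gene by gene. limma called 0 of 18418 genes (0%), 148 had an unadjusted p under 0.05 (0.804%), and no collagen gene was among them.

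The 25 near-background genes differed little between arrays. Their range over the 6 arrays had a median of 0.23 and reached 0.78 in COL12A1, and none differed from its control by 1.5-fold with any hairpin. The largest change was that of COL4A6 with FAL-1 hairpin 2, given above. Their median change was 0.01 and 0.10 with BMI1 hairpins 1 and 2, and -0.0020 and 0.18 with FAL-1 hairpins 1 and 2. All near-background genes had medians of 0.0046 and 0.06, and of 0.01 and 0.08. BMI1 hairpins 1 and 2 put 15 and 20 of the 25 above the control, beside 3916 and 5018 of all 7556 near-background genes. For the FAL-1 hairpins it was 11 and 22 of the 25, beside 4072 and 5421 of 7556, so hairpin 2 gave the higher count in general. Both BMI1 hairpins were above it for 13 of the 25 (52%, beside 41% of all near-background genes) and below it for 3 (12%, beside 22.8%). Both FAL-1 hairpins were above it for 10 (40%, beside 44.2%) and below it for 2 (8%, beside 18.5%). COL4A2, COL19A1, COL4A6, COL4A3, COL28A1 and COL21A1 were above their own control with all 4 hairpins (24%, beside 20.5%). COL4A6, COL4A3 and COL21A1 were above both controls with all 4 (12%, beside 11.3%). The shares with all 4 hairpins lay close to those of all near-background genes.

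COL12A1, a FACIT collagen on the surface of fibrils, separated the array sets more than the knockdowns. It read 6.46, 6.47 and 6.63 in the BMI1 control and with hairpins 1 and 2, and 7.24, 6.99 and 7.003 in the FAL-1 set. All 3 FAL-1 arrays were above all 3 BMI1 arrays, as for 12.4% of all genes, and no other collagen gene did this. Against their own controls the changes were 0.01 and 0.17, and -0.25 and -0.24. COL12A1 was picked out after its values were seen.

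The genes that make, export and bind collagen give the setting. Background steps are hydroxylation of proline and lysine in the endoplasmic reticulum, folding with chaperones, export in COPII vesicles, removal of propeptides, and crosslinking by lysyl oxidases. No measured gene of these lists passed limma's test over all genes (adjusted p under 0.05). Of all genes, 32.9% were above and 30.7% below the control with both BMI1 hairpins, and 37.2% and 27.7% with both FAL-1 hairpins. Of expressed genes alone, the shares were 27.3% and 36.3% for BMI1, and 32.4% and 34% for FAL-1. For near-background genes they were 41% and 22.8%, and 44.2% and 18.5%. The lists differ in this: 12 of 12 chaperone and secretion genes were expressed, and 3 of 6 crosslinking genes. The shares of all genes that both hairpins put at least 1.5-fold above or below the control were 0.538% and 0.901% for BMI1, and 0.576% and 0.635% for FAL-1. Of 14 hydroxylation and glycosylation genes, 7 were above the control with both FAL-1 hairpins and 4 below, and with BMI1 1 was above and 3 below. PLOD2, which hydroxylates lysines at the chain ends, read 8.42 in the BMI1 control, 8.24 and 7.48 with the hairpins, 8.91 in the FAL-1 control, and 8.47 and 7.79 with the hairpins. All 4 hairpins were below their own control, and hairpin 2 of each target differed more. The changes were -0.56 ± 0.54 with BMI1 and -0.79 ± 0.48 with FAL-1 knockdown (SD, n = 2 hairpins), and against the other target's control -1.05 and -0.29.

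Of 12 chaperone and secretion genes, 6 were above the control with both FAL-1 hairpins and 2 below, and with BMI1 3 were above and 5 below. SEC24D, a cargo-binding subunit of the COPII coat, differed by 0.70 and 0.46 with the hairpins for FAL-1. SAR1B, the GTPase that starts coat assembly, differed by 0.58 and 0.43. SEC23A, the other inner coat subunit, differed by -0.44 with each. Against the BMI1 control the mean changes of these 3 genes were 0.57, 0.62 and -0.47. FKBP14, a prolyl isomerase of the endoplasmic reticulum, was above its control with all 4 hairpins, by 0.47 and 0.52 with BMI1 and by 0.36 and 0.32 with FAL-1. Its controls differed, and against the other target's control the BMI1 change was 0.84 and the FAL-1 change -0.0040. CREB3L2, a transcription factor of the secretory pathway, was below its control with both BMI1 hairpins, by -0.45 and -0.72, and differed by 0.38 and -0.49 with FAL-1. MIA2, which helps load large cargo for export, differed by 0.46 and 0.27 with BMI1 and by -0.29 and 0.18 with FAL-1. SERPINH1, the collagen chaperone HSP47, was picked out after its values were seen: it differed by -0.97 with BMI1 hairpin 1, by -0.0050 with hairpin 2, and by 0.25 and 0.12 with the FAL-1 hairpins.

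Among 6 crosslinking genes, 5 were above the control with both FAL-1 hairpins and 0 below, and with BMI1 1 was above and 2 below. Of those 5, PXDN was near background, as LOX was, and LOXL1 differed by only 0.0017 and 0.06. LOX, the lysyl oxidase that gives the family its name and near background here, differed by -0.55 and -0.42 with BMI1 and by 0.11 and 0.17 with FAL-1. With FAL-1, LOXL2, a lysyl oxidase, differed by 0.39 and 0.73, and LOXL4 by 0.16 and 1.15, so LOXL4 depended on hairpin 2. With BMI1, LOXL2 differed by -0.10 and 0.25 and LOXL4 by -0.20 and 0.52. Among 8 propeptide processing genes, BMP1, the procollagen C-proteinase, differed by 0.37 and 0.26 with FAL-1. PCOLCE, which enhances that enzyme, differed by -0.12 and -0.78 with FAL-1 and by -0.57 and -0.21 with BMI1. Of 9 receptor genes, 5 were above the control with both BMI1 hairpins and 5 with both FAL-1 hairpins, of which ITGA10, ITGA11, ITGB1 and DDR1 were above with all 4. ITGA10 and ITGA11 were near background. DDR1, a receptor kinase that collagen activates, differed by 1.15 with BMI1 hairpin 2 and 1.38 with FAL-1 hairpin 2, but by 0.13 and 0.14 with hairpins 1. ITGB1, the beta 1 integrin of collagen receptors, differed by 0.11 to 0.22.

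Of 13 basement membrane partners, 6 were above the control with both FAL-1 hairpins and 3 below, and with BMI1 4 were above and 4 below. NID1, nidogen 1, which links laminin to type IV collagen, read 10.57 in the BMI1 control, 11.19 and 11.52 with the hairpins, 10.76 in the FAL-1 control, and 11.65 and 11.94 with the hairpins. All 4 hairpins were above both controls and at 1.5-fold or more over their own. The changes were 0.78 ± 0.23 with BMI1 and 1.04 ± 0.20 with FAL-1 knockdown (SD, n = 2 hairpins), with adjusted p values of 0.9998 and 0.9991 (limma). Against the other target's control they were 0.60 and 1.22. LAMC1, the laminin gamma 1 chain, differed by 0.53 and 0.57 with BMI1 and by 0.40 and 0.61 with FAL-1, and by 0.50 and 0.55 on average against the other controls. No other gene of the list was at 1.5-fold or more with both hairpins of a target. LAMB2, a laminin beta chain, differed by 0.53 and 0.56 with the hairpins for FAL-1. AGRN, agrin, differed by 0.50 and 0.89 with them. Against the BMI1 control their mean FAL-1 changes were 0.92 and 0.41. LAMB1, another laminin beta chain, and NID2, nidogen 2, were below their control with all 4 hairpins. LAMB1 differed by -0.29 and -0.21 with BMI1 and by -0.41 and -0.42 with FAL-1. NID2 differed by -0.07 and -0.28 with BMI1 and by -0.39 and -0.40 with FAL-1. Against the other target's control the BMI1 and FAL-1 changes were -0.36 and -0.30 for LAMB1, and -0.82 and 0.26 for NID2. LAMA1, a laminin alpha chain, was below its control with all 4 hairpins, by -0.33 and -0.44 with BMI1 and by -0.04 and -0.32 with FAL-1. Its controls differed, and against the other target's control the BMI1 change was 0.03 and the FAL-1 change -0.59.

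Of 12 interstitial matrix partners, 7 were above the control with both FAL-1 hairpins and 2 below, and with BMI1 4 were above and 3 below. FBLN1, fibulin 1, was below its control with all 4 hairpins, by -0.58 and -0.82 with BMI1 and by -0.30 and -0.95 with FAL-1. THBS1, thrombospondin 1, was above with all 4, by 0.26 and 0.73, and by 0.22 and 2.76, so the FAL-1 mean rested on hairpin 2. Of the 6 collagenases, MMP1, which cleaves fibrillar collagen, differed by 0.89 and 1.31 with FAL-1 and by 0.77 and 0.02 with BMI1. Its controls read 8.56 in the BMI1 set and 9.63 in the FAL-1 set, and against the other target's control the changes were 2.17 for FAL-1 and -0.67 for BMI1.

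The fibroblast markers, which share LUM and DCN with the interstitial list, were split: both BMI1 hairpins were above the control for 2 and below it for 4, and both FAL-1 hairpins for 2 and 2. Their mean log2 value was 9.002 in the BMI1 control and 8.62 to 8.98 with its hairpins, and 9.22 in the FAL-1 control and 8.98 to 9.30 with its hairpins. PDGFRB, a growth factor receptor of mesenchymal cells, was the 1 marker of 7 at 1.5-fold or more with both hairpins, lower by -1.23 and -0.84 with BMI1 and by -0.59 and -0.67 with FAL-1. THY1, a surface glycoprotein, was below its control with all 4 hairpins, by -0.89 and -0.21 with BMI1 and by -0.35 and -0.42 with FAL-1. PDGFRA differed by -0.45 and -0.33 with BMI1 and by 0.08 and -0.74 with FAL-1. POSTN, a matrix protein that binds collagen, differed by 0.14 and 0.33 with BMI1 and by 0.30 and 0.31 with FAL-1. Other markers stood apart with FAL-1 hairpin 2: the keratins KRT8 and KRT18 were higher there by 1.79 and 0.69 and CD68 by 0.89, where hairpin 1 gave -0.24, -0.34 and 0.0021. With the BMI1 hairpins KRT8 differed by 0.22 and 0.59, KRT18 by -0.13 and 0.48, and CD68 by -0.24 and 0.17. The mean log2 value of the 10 ovarian carcinoma markers was 6.92 in the BMI1 control and 6.95 to 7.19 with its hairpins, and 6.91 in the FAL-1 control and 6.87 to 7.32 with its hairpins. That of the 5 leukocyte markers was 6.41, 6.34 to 6.53, 6.56, and 6.57 to 6.79 in the same order, and that of the 5 endothelial markers 6.25, 6.30 to 6.34, 6.26, and 6.23 to 6.38. The part of these markers in the collagen values was not tested. The labels name A2780 cells alone, with no other cell type. In bulk RNA, fewer cells of a kind and less RNA per cell cannot be told apart.

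**Figure D4:**
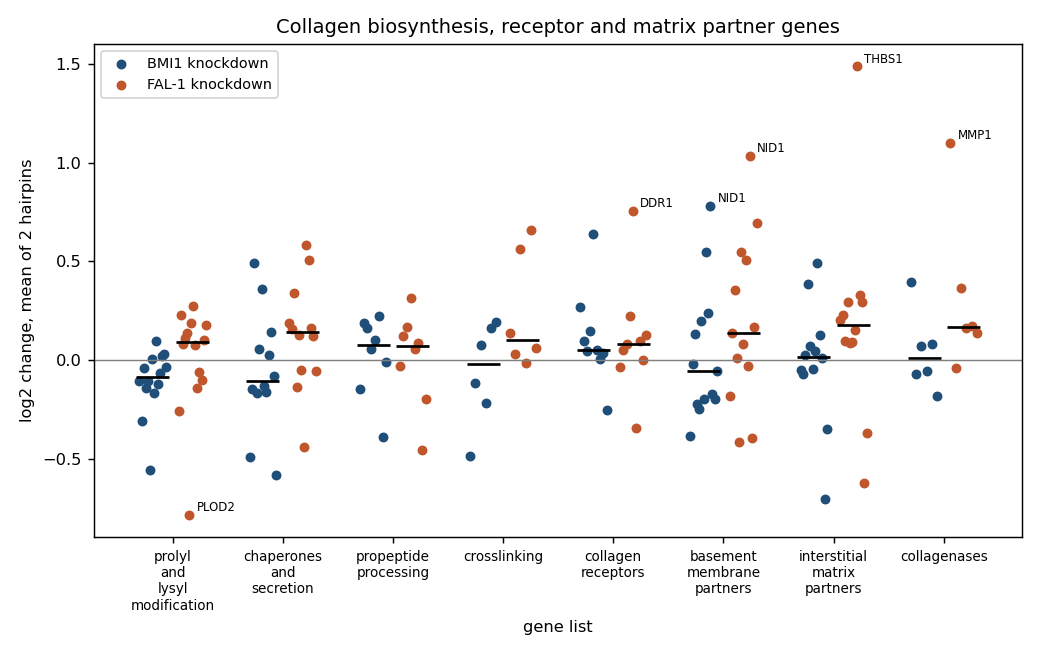
Log2 change averaged over the 2 hairpins of a target (vertical axis) for each measured gene of the lists on collagen biosynthesis, receptors, matrix partners and collagenases (horizontal axis); blue is BMI1 and orange FAL-1 knockdown, black bars are list medians, and genes beyond 0.75 are named. NID1 is at 0.78 and 1.04, THBS1 with FAL-1 is the highest point, at 1.49, and PLOD2 with FAL-1 the lowest, at -0.79.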

How the data were processed

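Expression was measured on 6 Affymetrix arrays of A2780 cells, 1 a construct, from total RNA. The authors deposited 1 table of log2 probe set values; per the submitters' processing notes RMA was used. Its version, and whether the 6 arrays entered 1 normalization, was not given in the sources used here. Arrays have no read depth, so their number limits the precision.

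A platform annotation gave the gene symbols: of 33252 probe sets, 19460 had 1 symbol, 1754 several and 12038 were not listed. Of several probe sets of a gene (769 genes) the brightest on average was used. The probe set of BMI1 and COMMD3-BMI1 was kept for BMI1, which left 18418 genes. COL17A1 was not analysed here.

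All 6 arrays entered 1 fit of 4 group means (limma 3.58.1, R 4.3.3, lmFit and eBayes). Tests were two-sided, with Benjamini-Hochberg over all genes and an adjusted p under 0.05. The fit was also run on simulated data, where the planted changes were larger than any collagen change here. That run does not cover changes of the collagen size. With 1 array against 2, an exact permutation test stops at a p of 0.333 and was not run. Figures used matplotlib 3.10.9 (Python 3.11.15). Members and lists were chosen with earlier results of these data known. Named genes were all expressed collagen genes, those nearest the split, and up to 3 expressed genes per list and target ranked on their less changed hairpin where both had one sign, of which most are printed. Other genes named were picked after their values were seen. Alternatives were other controls, quantile normalization, cyclic loess, other probe set rules, filters, priors, folds, the hairpin number as a block, and leaving out each hairpin.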

Additional observations from a re-analysis of the deposited data

How the results depend on the processing

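No alternative gave a gene an adjusted p under 0.05 in limma for either knockdown or their difference, while an unadjusted p under 0.05 gave 477, 563 and 148 genes. The hairpin number is only a number, since the hairpins of the targets are unrelated constructs; with it as a replicate block limma called 0 genes in each comparison, and 782, 1064 and 286 had an unadjusted p under 0.05. The count of collagen genes at 1.5-fold with both BMI1 hairpins went from 0 to 2 against the FAL-1 control (COL4A5 and COL12A1), to 1 against the mean of both controls and to 1 at 1.3-fold (COL4A5 in each), and was 0 to 2 when 1 BMI1 hairpin was left out. For FAL-1 it went from 1 to 2 at 1.3-fold, where COL1A2 joined COL5A2, and was 1 to 3 when 1 hairpin was left out, with COL1A2 and COL4A5 added without hairpin 1. It stayed at 1, COL5A2, under both other controls and both normalizations. With 1 hairpin left out, the counts for both targets are of genes at 1.5-fold with the hairpin that remains, a looser rule. The median change of expressed collagen genes with BMI1 had no stable sign, from -0.10 to 0.17 when 1 hairpin was left out and -0.0049 over the genes more than 1 above the median of probe sets. For FAL-1, from 0.16, it was 0.05 to 0.24 when 1 hairpin was left out and 0.25 over those genes. Of 18 single-gene changes with both hairpins on one side, 3 changed sign under another control: COL11A1 with BMI1 was 0.23 against the FAL-1 control and 0.079 against the mean of both controls, COL6A2 with FAL-1 was -0.067 and -0.0115 against the BMI1 control and the mean, and COL9A3 with FAL-1 was -0.0118 against the BMI1 control. The cause was not tested. The difference between the knockdowns was not fitted with other controls.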
